A study of Mus musculus with 5 samples.

Results

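The inner medulla and the outer medulla of the mouse kidney were compared as whole libraries, gene by gene, with no assignment of barcodes to cell types. In Drop-seq, cells are captured in droplets with barcoded beads, and each mRNA molecule counted carries a unique molecular identifier (UMI). The UMIs of all 4035 barcodes of the inner medulla library and of all 10895 barcodes of the outer medulla library were summed, and each sum was scaled to CPM, the UMIs of a gene per 1000000 UMIs of its library. These are 2 of the 5 libraries of the series, and together they listed 15319 genes. The mice were wild type, of the strain spelled C56BL/6N in the labels, and no treatment, age or sex was given. The medullary libraries came from microdissected tissue, with 1 library per region, so no test between the regions was possible and no p-value is given. Whole kidney 1 (12648 barcodes) and whole kidney 2 (15051 barcodes) were summed the same way. Their ratio gave the spread to be had from a pair of libraries alike in kind. Neither is a library of a single region, so variation between dissections of the same region is not part of this spread. The labels do not say whether any of these libraries came from separate animals.

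The inner medulla holds the tip of the concentrating nephron: the inner medullary collecting duct, thin limbs of Henle's loop, vasa recta and interstitial cells. The outer medulla holds the straight part of the proximal tubule (S3), the thick ascending limb and the outer medullary collecting duct, while glomeruli, convoluted proximal tubules and distal convoluted tubules lie in the cortex. Vasopressin inserts the water channel aquaporin-2 into the collecting duct, urea transporters carry urea into the inner medullary interstitium, and cells there withstand high osmolality by accumulating organic osmolytes and by expressing chaperones.

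The libraries held 869732 UMIs (inner medulla), 2715993 (outer medulla), 2910597 (whole kidney 1) and 4169677 (whole kidney 2). The median was 102 to 119 UMIs per barcode, and barcodes with under 100 detected genes carried 15.7% to 19.8% of the UMIs. Each pair of libraries shared between 2 and 14 barcode sequences, with 3 shared by the medullary pair. A UMI was worth 1.15 CPM in the inner medulla and 0.368 CPM in the outer medulla, so low genes were measured less precisely in the inner medulla. In a sum over a library, fewer cells of a type and less RNA per cell cannot be told apart, and RNA that left other cells is counted as well.

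A gene was counted as past the size when it reached 100 CPM in the higher library and its log2 ratio of CPM plus 10 was at least 1 in size. The added 10 CPM makes the log2 ratios of low genes smaller than their plain folds. Of 2482 genes with at least 100 CPM in either medullary library, 865 were past the size (34.9%), 518 higher (20.9%) and 347 lower (14%) in the inner medulla. Between the whole kidney libraries, 5 of 1832 genes were past it (0.273%). In whole kidney 2, Dbp, a clock-controlled transcription factor, was the only gene higher (0.0546%), and Cyp24a1, Ndrg1, Pnrc1 and Rn45s were the 4 lower (0.218%). The 95% counting interval of the ratio excluded equality for all 865 genes. At these library totals the size rule already implies this, so it is no further check. The split into higher and lower genes depended on the scaling. With edgeR's TMM factors, 194 genes were higher and 612 lower, and with DESeq2's median-of-ratios size factors 207 were higher and 578 lower. TMM moved the median log2 ratio of the 7470 genes with at least 20 CPM in either library from 0.40 to -0.05, and some ratios near 0 change sign with it. The median shifted by -0.45 with TMM factors and by -0.41 with size factors. Shifts of this size cannot carry a gene past the size in the opposite direction, so the absence of such genes is no check of the calls.

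**Figure D1:**
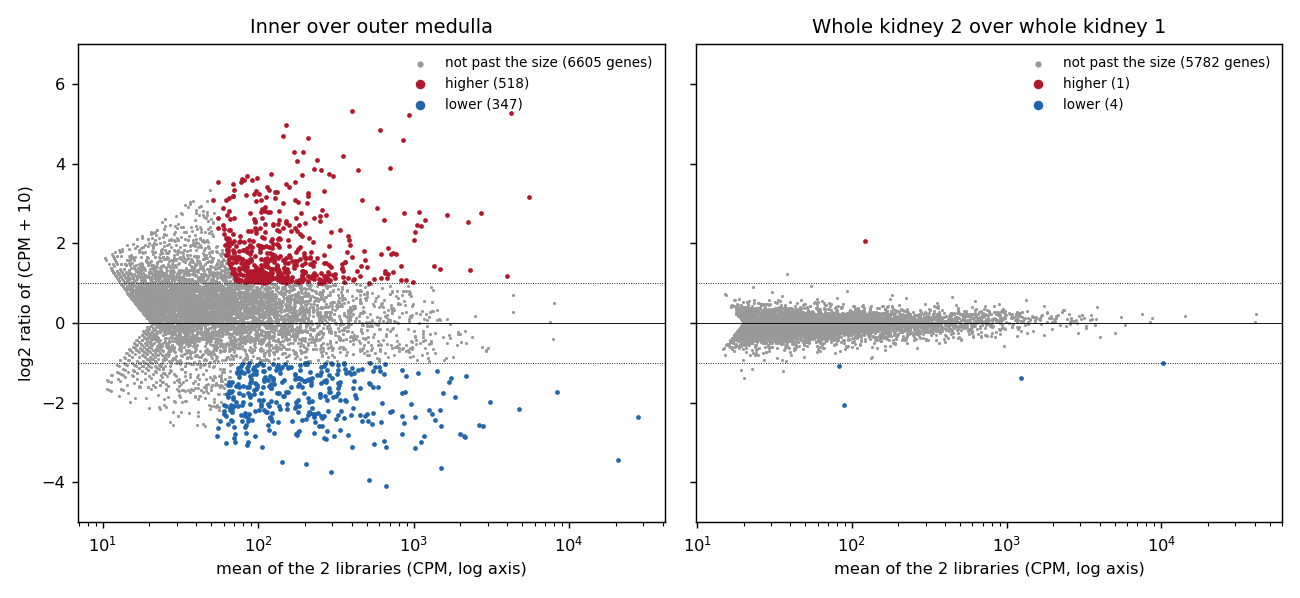
Log2 ratio of (CPM + 10) against the mean CPM (log axis) of the same pair of libraries, 1 point per gene with at least 20 CPM in either, for inner over outer medulla (left) and whole kidney 2 over whole kidney 1 (right). Coloured points are genes past the size, 518 higher and 347 lower on the left against 1 and 4 on the right, and dotted lines mark a log2 ratio of 1 in size.

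The 518 higher genes took up 18.9% of all UMIs in the inner medulla, 4.86% in the outer medulla, and 4.37% and 3.92% in the whole kidney libraries. The 347 lower genes took up 6.19% in the inner medulla, 28.2% in the outer medulla, and 29.7% and 31.3% in the whole kidney libraries. Of the 518, 340 had both whole kidney levels below the outer medulla (65.6%, against 47.5% of all 2482 genes). Of the 347, 190 had both whole kidney levels above the outer medulla (54.8%, against 27.9% of all genes). The outer medulla library thus stood between the inner medulla and the whole kidney for most of these genes, and nearer to the whole kidney in its summed shares.

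Markers of the collecting duct were higher in the inner medulla. Over all 7470 measured genes (at least 20 CPM in either library), 6.93% were past the size higher and 4.65% lower. Only genes with at least 100 CPM can be past the size, and of those 2482 genes 20.9% were higher and 14% lower. The counts of measured list members below stand beside both pairs of shares. The share of measured genes with counting intervals off equality was not counted. Their median log2 ratio was 0.40 (-0.05 with TMM factors), so values above equality are common under CPM scaling. Of 10 markers of the inner medullary collecting duct, 9 were past the size and all 10 had higher values in the inner medulla, with a median log2 ratio of 3.66 (-0.16 between the whole kidney libraries). Aqp4, the water channel of the basolateral membrane, stood at 1644 CPM in the inner medulla, 58.5 in the outer medulla, and 6.53 and 4.32 in the whole kidney libraries, 28.1-fold higher in inner than outer medulla (95% counting interval 23.8 to 33.3). The levels thus fell from inner medulla to outer medulla to whole kidney. Plet1, a surface protein of epithelia, stood at 1835 CPM against 39.4, 18.9 and 16.1 in the same order. Aldh1a3, which makes retinoic acid, had 262 UMIs in the inner medulla (301 CPM) and 0 UMIs in each of the other libraries. That is 273-fold higher than outer medulla when 3 UMIs are put in place of its 0, with a counting interval from 220 up. Muc1, a transmembrane mucin, was 43.3-fold higher (interval 27.8 to 71.0), and Foxq1, a forkhead transcription factor, stood at 204 CPM against 18.4. Ptgs1, a cyclooxygenase, was the member not past the size, at 60.9 CPM against 13.6. The markers' summed share was 0.559% of UMIs in the inner medulla against 0.0245% in the outer medulla, 0.0159% and 0.0118% in the whole kidney libraries. The list was chosen with earlier results of these data known, so this share is a description and no check of the label.

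Principal cell markers divided. Of 12 measured, 7 were past the size, all higher, and the other 5 had lower values in the inner medulla, with a median log2 ratio of 1.82. Aqp2, the vasopressin-regulated apical water channel, stood at 9972 CPM in the inner medulla, 1108 in the outer medulla, and 350 and 256 in the whole kidney libraries, 9.0-fold higher in inner than outer medulla (interval 8.63 to 9.39). It had the largest CPM difference of all higher genes. Fxyd4, a regulator of the sodium pump in the collecting duct, stood at 3839, 651, 141 and 129 CPM. Elf5, an epithelial transcription factor, stood at 235, 8.47, 1.03 and 0.24 CPM, and Avpr2, the vasopressin V2 receptor, at 298, 48.6, 17.9 and 11.8 CPM. These genes were highest in the inner medulla and lowest in whole kidney. The subunits of the epithelial sodium channel did not follow. Scnn1a stood at 18.4 CPM in inner and 32.4 in outer medulla (fold interval 0.311 to 0.974), and the intervals of Scnn1b and Scnn1g included equality. Hsd11b2, which protects the mineralocorticoid receptor from glucocorticoids, stood at 199 CPM against 309, with 167 and 136 in the whole kidney libraries. With TMM factors, 6 of the 12 were past the size higher and 1 lower. Of 7 intercalated cell markers, 6 had intervals above equality (median 0.78, and 0.41 with TMM factors). Only 1 reached 100 CPM, and it was not past the size. Aqp6, an intracellular channel of these acid-secreting cells, stood at 98.9 CPM against 27.6.

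**Figure D2:**
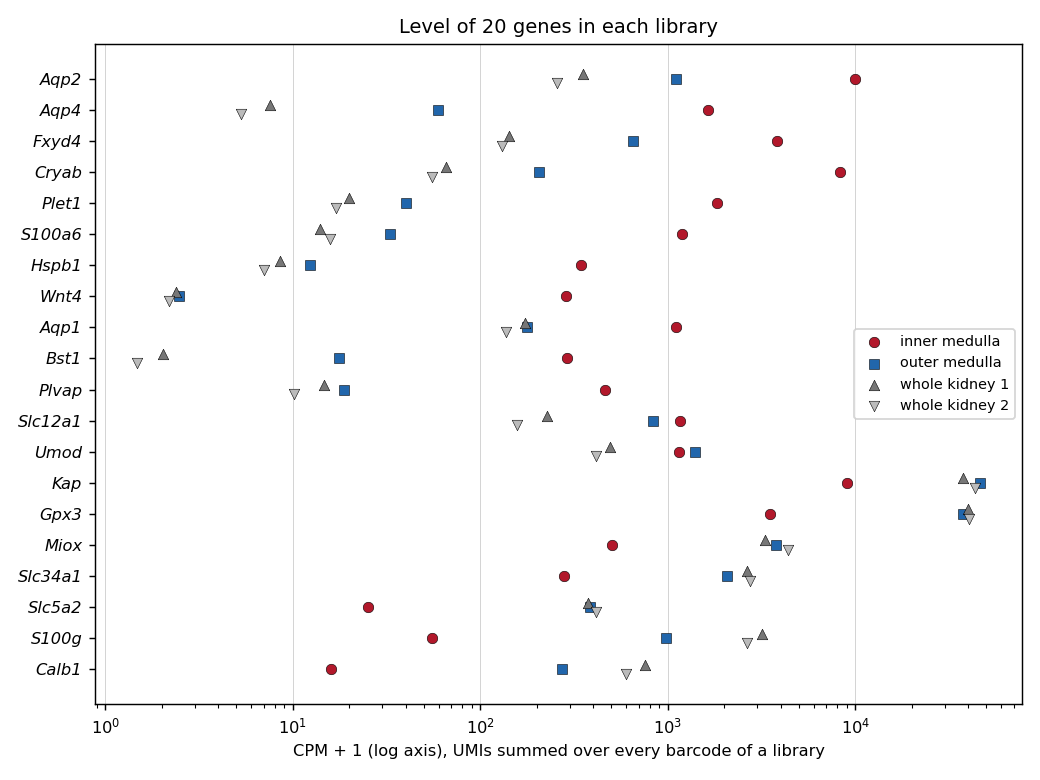
CPM + 1 (log axis) of 20 genes in the inner medulla, outer medulla and both whole kidney libraries, with UMIs summed over every barcode. Aqp2, Aqp4, Fxyd4 and Cryab fall from inner medulla to outer medulla to whole kidney, while Kap, Gpx3 and Slc5a2 lie close together in outer medulla and whole kidney.

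Water channels and urea transporters were higher as a group. Of 8 measured, 5 were past the size, all higher (Aqp1, Aqp2, Aqp3, Aqp4 and Slc14a2), and the median log2 ratio was 2.69. With TMM factors 4 were higher and 1 lower. Slc14a2, which encodes the UT-A urea transporters of collecting duct and thin limb, stood at 215 CPM in the inner medulla, 22.5 in the outer medulla, and 0 and 1.20 in the whole kidney libraries. Slc14a1, the UT-B urea transporter of descending vasa recta and red cells, stood at 92.0 CPM against 2.21, 0.687 and 0, under the level needed to count. Aqp3, basolateral in principal cells, differed less, at 923 CPM against 384 (2.40-fold, interval 2.19 to 2.64). Aqp11, an intracellular channel of the proximal tubule, had the opposite ratio, at 14.9 CPM against 97.6, 91.0 and 103.

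Thin limb markers were higher and thick ascending limb markers were close to equal. All 6 measured thin limb markers had intervals above equality (median log2 ratio 2.46), and Aqp1 and Bst1 were past the size. Aqp1, a water channel of the descending thin limb and the proximal tubule, stood at 1112 CPM in the inner medulla against 176, 173 and 136. Its log2 ratio was 2.02 in barcodes with at least 200 genes and 3.03 in those with under 100. Which cells its RNA came from was not tested. Bst1, a surface ADP-ribosyl cyclase, stood at 287 CPM against 16.6, 1.03 and 0.48. Sptssb, a subunit of serine palmitoyltransferase, had 59 UMIs in the inner medulla and 0 in the outer medulla (61.4-fold with 3 UMIs in place of the 0, counting interval from 48.4 up). Of 11 thick ascending limb markers, Egf alone was past the size, at 194 CPM against 458. Slc12a1, the apical sodium-potassium-chloride cotransporter, stood at 1161 CPM in the inner medulla, 835 in the outer medulla, and 227 and 156 in the whole kidney libraries (1.39-fold inner over outer, interval 1.29 to 1.5, and below equality with TMM factors). Umod, uromodulin, stood at 1143, 1393, 493 and 412 CPM. The list's summed share was 0.442% in the inner and 0.434% in the outer medulla, both above whole kidney (0.213% and 0.168%), and its median log2 ratio of -0.12 ranged from -0.65 to 0.01 over the settings tried. By anatomy, thick ascending limbs begin at the border of the inner and outer medulla and lie outside the inner medulla. Whether their RNA in the inner medulla library came with dissected tissue or as free RNA was not tested.

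Proximal tubule markers were lower in the inner medulla with few exceptions. Of 12 markers of all segments, 11 were past the size, all lower, with a median log2 ratio of -2.43 (0.04 between the whole kidney libraries). Slc34a1, the phosphate cotransporter, stood at 277 CPM in the inner medulla, 2058 in the outer medulla, and 2635 and 2730 in the whole kidney libraries. Miox, which breaks down myo-inositol, stood at 505, 3759, 3318 and 4401 CPM. For the convoluted S1 and S2 segments, 9 of 10 markers were past the size lower (median -2.60), and Slc5a2, the glucose cotransporter SGLT2, stood at 24.1, 385, 374 and 413 CPM. For S3, 5 of 9 were past the size lower (median -1.38), among them Kap, an androgen-regulated protein of proximal tubule, at 9000, 46423, 37720 and 43730 CPM. Kap had the largest CPM difference of all lower genes. In the inner medulla, Kap stood at 8476 CPM in barcodes with at least 200 genes and at 9643 in barcodes with under 100 genes. In the outer medulla it stood at 53097 and 33988 CPM.

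Markers of S1 and S2 and of podocytes were present in the outer medulla library at levels near whole kidney. The summed share of the S1 and S2 markers was 0.586% in the outer medulla, against 0.466% and 0.491% in the whole kidney libraries and 0.0611% in the inner medulla. Ttr, the carrier protein transthyretin, gave the most UMIs of this list in the outer medulla, and without it (a choice made after seeing the data) the shares were 0.308%, 0.318%, 0.368% and 0.0396% in the same order. The 10 podocyte markers, 4 of them measured, had a summed share of 0.0182% in the outer medulla, 0.0167% and 0.0132% in whole kidney, and 0.00816% in the inner medulla. Nphs1 and Wt1, podocyte genes too low to be measured, had 11 and 13 UMIs in the outer medulla and 0 in the inner medulla. The labelled outer medulla therefore carried RNA of structures that lie in the cortex, beside a thick ascending limb share above that of whole kidney. How much cortex was in the dissected tissue was not tested. Markers of the distal segments stood below whole kidney in the outer medulla. Calb1, the vitamin D-dependent calbindin of the connecting tubule, stood at 14.9 CPM in the inner medulla, 272 in the outer medulla, and 756 and 601 in whole kidney. S100g, the smaller vitamin D-dependent calbindin, stood at 54.0, 974, 3168 and 2656 CPM. Slc12a3, the thiazide-sensitive cotransporter of the distal convoluted tubule, stood at 8.05, 102, 169 and 130 CPM. For these genes the outer medulla lay between inner medulla and whole kidney.

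**Figure D3:**
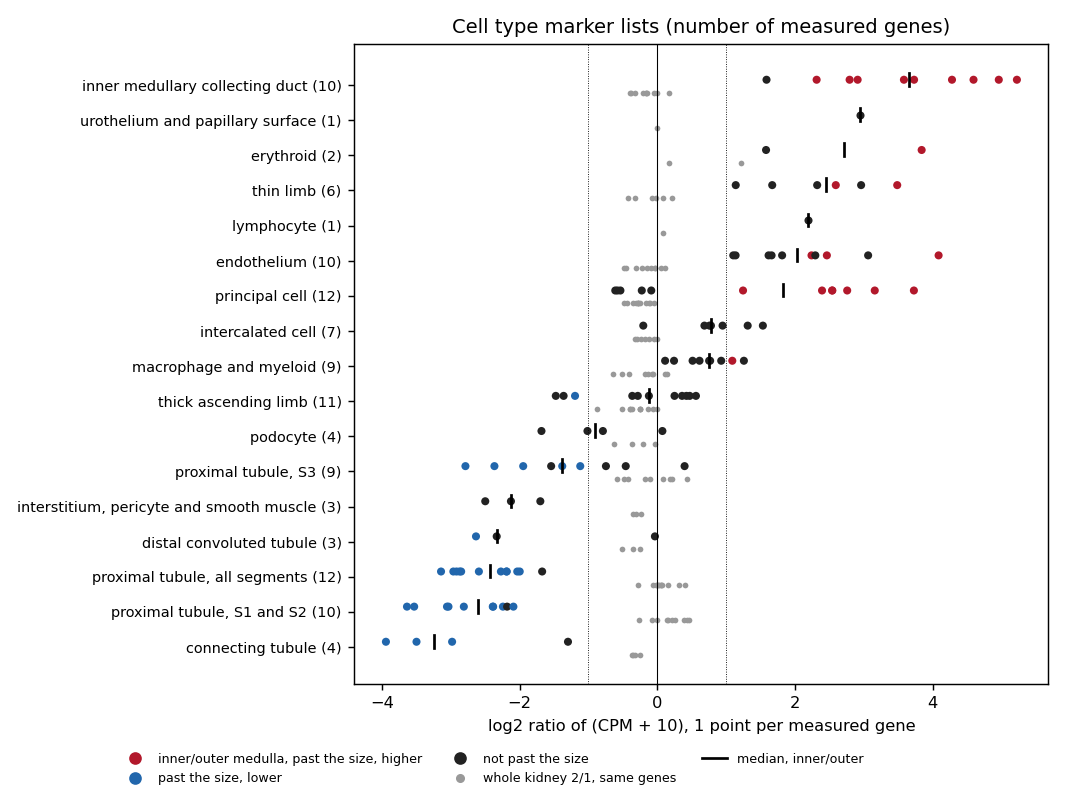
Log2 ratio of (CPM + 10), inner over outer medulla, for each measured marker gene (upper row of each list, coloured where past the size, bar at the median), with whole kidney 2 over whole kidney 1 for the same genes in grey below. Collecting duct, thin limb and endothelial lists lie to the right, proximal and connecting tubule lists to the left, and the thick ascending limb list around 0.

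Endothelial markers were higher in the inner medulla. All 10 measured had intervals above equality (median log2 ratio 2.03), and Plvap, Emcn and Pecam1 were past the size (2 of the list with TMM factors). Plvap, which forms the diaphragms of fenestrated capillaries, stood at 460 CPM in the inner medulla, 17.7 in the outer medulla, and 13.7 and 9.11 in whole kidney. Pecam1, a junction protein of all endothelium, stood at 121, 17.7, 7.22 and 7.91 CPM. Mural cell markers went the other way, at low counts. Rgs5, a pericyte gene, had 1 UMI in the inner medulla (1.15 CPM) against 53.0 CPM in the outer medulla, and Tagln, a smooth muscle gene, had 0 UMIs against 22.5 CPM. Fibroblast genes of the list had at most 9 UMIs in either library for Pdgfra, Col1a1, Col1a2 and Lum, too few to compare.

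Some blood and immune markers had other ratios in gene-rich than in gene-poor barcodes. Hbb-b2, a beta globin, stood at 829 CPM in the inner medulla, 48.6 in the outer medulla, and 18.9 and 57.3 in whole kidney, which differed from each other by 1.22 on the log2 scale. In the inner medulla it stood at 3309 CPM in barcodes with under 100 genes and at 209 in those with at least 200. Cd74, the class II invariant chain, was the 1 gene of 9 measured myeloid markers past the size, at 766 CPM against 355, with a log2 ratio of 1.09 over every barcode and -0.34 in barcodes with at least 200 genes, and with TMM factors 0 of the 9 were past it. Lyz2, the lysozyme of macrophages and neutrophils, had 0.93 over every barcode, 1.60 in barcodes with under 100 genes and -1.01 in those with at least 200. The class II genes H2-Aa and H2-Ab1 had -0.55 and -1.08 in gene-rich and 0.39 and 0.34 in gene-poor barcodes. Tyrobp had 0.09 in gene-rich and 0.45 in gene-poor barcodes, and Fcer1g 0.17 and -0.14. The complement genes of macrophages had positive values in both classes. In the same order, C1qa had 0.45 and 0.88, C1qb 0.75 and 0.10, and C1qc 1.00 and 0.81. These values rest on few UMIs. In gene-rich barcodes C1qa stood at 11.5 CPM in the inner and 5.71 in the outer medulla. Upk3b, a uroplakin of papillary surface and urothelium, stood at 83.9 CPM in the inner medulla against 2.21 in the outer medulla and 0 in both whole kidney libraries, while Krt5 and Krt20, keratins of urothelium, had 0 UMIs in both medullary libraries.

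Genes of osmotic protection were measured through 13 of 18 listed genes, of which 6 were past the size higher and Sord lower (4 higher and 1 lower with TMM factors), with a median log2 ratio of 1.35. Promoter stretches of 3 chaperone genes of this list are shown because, among the listed genes with a promoter found, only theirs hold a match in the printed bases. Their values were higher in the inner medulla, with Hspb1 and Hspa1a past the size and Hspa1b under the level needed to count (74.7 CPM against 4.05). The printed stretches run from base -150 to base -51 before the annotated start, 5′ to 3′ along the gene, as RefSeq gives them in build GRCm38.p6. Capitals mark matches to GAANNTTC, a core of the heat shock element, which reads the same on both strands.
Hspb1 (chr5:135887769-135887868, plus strand): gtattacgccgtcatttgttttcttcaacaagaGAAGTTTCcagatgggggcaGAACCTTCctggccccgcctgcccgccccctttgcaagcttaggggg
Hspa1a (chr17:34972207-34972306, minus strand): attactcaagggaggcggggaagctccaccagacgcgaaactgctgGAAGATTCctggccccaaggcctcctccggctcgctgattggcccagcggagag
Hspa1b (chr17:34959289-34959388, minus strand): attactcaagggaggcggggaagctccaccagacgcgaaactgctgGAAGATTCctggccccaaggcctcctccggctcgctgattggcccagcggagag
The first match starts at base -117 in Hspb1, with another at -97, and at -104 in Hspa1a and Hspa1b. Hsph1, a chaperone gene of the list also higher in the inner medulla, had its match after the start, at base 42 or 21 depending on the annotated start. Promoters were found for 14 of the 18 listed genes, in 27 windows of 300 bases, from 250 before to 50 after a start. The letters GAANNTTC were in 8 of the 27, which belong to 6 genes and partly overlap, and in 7.86% of all 32851 such mouse windows. A second motif searched for on both strands, TGGAAA, was in 8 of the 27 windows (5 genes) and in 21.4% of all windows. No promoter was found for Cryab. The printed stretches of Hspa1a and Hspa1b have 0 differences, and their windows differ at 4 of 300 bases. The transcripts of these genes were not compared, and whether reads were divided between them was not tested.

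Cryab, the small heat shock protein alpha-B crystallin, had the second largest log2 ratio (5.26) and the second largest CPM difference among the higher genes named. It stood at 8253 CPM in the inner medulla, 205 in the outer medulla, and 64.9 and 54.4 in whole kidney, 40.2-fold higher in inner than outer medulla (interval 36.9 to 43.9). Its log2 ratio was 5.41 in barcodes with at least 200 genes and 5.23 in those with under 100. Hspb1, another small heat shock protein, stood at 345, 11.4, 7.56 and 6.00 CPM. Hspa1a, an inducible HSP70, stood at 124, 5.15, 3.44 and 2.88 CPM, and Hsph1, an HSP70 nucleotide exchange factor, at 346, 52.3, 50.8 and 43.2 CPM. Each was highest in the inner medulla, and the outer medulla was near whole kidney for Hspb1, Hspa1a and Hsph1. Sgk1, a kinase induced by aldosterone and by hypertonicity, stood at 387, 33.5, 15.5 and 26.6 CPM. Slc5a3, the myo-inositol importer, stood at 215, 89.8, 38.8 and 15.6 CPM (2.39-fold, interval 1.97 to 2.91). Nfat5, the transcription factor of the hypertonic response, stood at 43.7 CPM against 11.8 (fold interval 2.26 to 6.13), under the level needed to count. Slc6a12, the betaine importer, had 14 UMIs against 4, too few to be measured. Slc6a6, the taurine importer, was below equality at 112 CPM against 159. Sord, which turns sorbitol into fructose and is abundant in proximal tubule, stood at 272, 1413, 1561 and 1758 CPM.

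Genes of cell junctions and cytoskeleton included both higher and lower members. Of 10 claudins, 3 were past the size higher and Cldn2 lower. Cldn4, Cldn7 and Cldn8, claudins of the collecting duct, stood at 222, 240 and 840 CPM in the inner medulla against 12.9, 32.0 and 90.9 in the outer medulla. Cldn2, the cation-permeable claudin of the proximal tubule, stood at 35.6 CPM against 209. Of 9 keratins and related genes, Krt7, Krt8, Krt18 and Krt23 were past the size, all higher, and Krt18, a keratin of simple epithelia, stood at 367 CPM against 18.8, 17.2 and 7.43. Of 13 S100 and annexin genes, 4 were higher and S100g lower. S100a6, a calcium-binding protein, stood at 1188 CPM in the inner medulla against 32.0, 13.1 and 14.9, a 37.1-fold ratio over outer medulla (interval 29.8 to 46.7). Anxa2, a membrane-binding partner of S100 proteins, stood at 462 CPM against 56.0.

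Several ligands and receptors were higher in the inner medulla. Wnt4, a secreted ligand, stood at 286 CPM in the inner medulla and had 4 UMIs in the outer medulla (1.47 CPM, fold interval 75.0 to 719), with 1.37 and 1.20 CPM in whole kidney. Wnt7b and Wnt9b, ligands of collecting duct development, stood at 135 and 158 CPM against 4.42 and 4.05. Apela, a ligand of the apelin receptor, stood at 1522, 216, 47.8 and 37.7 CPM. Of 20 secreted modulators measured, 4 were past the size higher (the 3 Wnt genes and Apela) and 3 lower (Egf, Clu and Klk1), with a median of -0.28. Of 10 genes of prostaglandin, endothelin and vasopressin signalling, 4 were higher and none lower. Ptges, which makes prostaglandin E2, stood at 166 CPM against 3.68, 17.2 and 6.72. Ptger1, a receptor of prostaglandin E2, stood at 299, 19.1, 1.03 and 1.44 CPM, and Ednrb, an endothelin receptor, at 108, 13.3, 11 and 6.72 CPM.

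Of 26 nephron transcription factors, 10 were past the size higher and 2 lower, Hnf4a and Maf, with a median log2 ratio of 0.84 (8 higher and 2 lower with TMM factors). Pax2, a regulator of the ureteric bud and nephron, stood at 184, 9.57, 8.93 and 11 CPM. Ehf and Elf3, epithelial ETS factors, stood at 373 and 122 CPM against 37.9 and 8.84. Hnf4a, the regulator of proximal tubule genes, stood at 29.9, 172, 200 and 198 CPM. Emx2, a homeobox factor of the collecting duct lineage, was higher over every barcode (1.60) but not in barcodes with under 100 genes (-0.10). Hoxb7, a Hox gene of the collecting duct, was past the size higher at 252 CPM against 78.8, whereas Hoxa10 stood at 52.9 CPM against 81.0.

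Metabolic genes of the proximal tubule had lower members in each list. Of 10 genes of gluconeogenesis and fructose metabolism, 6 were past the size, all lower (median -1.95), and Fbp1, a committed step of gluconeogenesis, stood at 139, 1152, 1385 and 1454 CPM. Of 22 transporters of organic solutes and amino acids, 16 were past the size and all 22 had intervals below equality (median -2.08). Slc22a6, the organic anion importer OAT1, stood at 67.8, 358, 528 and 502 CPM. Of 20 genes of fatty acid oxidation and the peroxisome, 5 were lower (median -0.66), among them Cat, the peroxisomal catalase, at 112 CPM against 313. With TMM factors 11 of these 20 were lower. Of 20 redox genes, Gstm1 was higher and 6 were lower (1 and 10 with TMM factors). Gpx3, the glutathione peroxidase secreted from kidney into plasma, stood at 3494 CPM in the inner medulla against 37753, 39913 and 40392, and was 10.8-fold lower than in outer medulla (interval 10.4 to 11.2). Gstm1, a glutathione transferase, stood at 1899 CPM against 267, 295 and 242.

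Energy genes differed by less. None of 36 nuclear genes of oxidative phosphorylation was past the size, yet the intervals of 33 lay below equality, and the median log2 ratio was -0.53 (0.10 between the whole kidney libraries, 0.40 over all measured genes). With TMM factors 24 were past the size, all lower. Cox7a2, a subunit of cytochrome c oxidase, stood at 1266, 2306, 1971 and 2124 CPM, and Uqcr10, of complex III, at 870, 1609, 1677 and 1658 CPM. The inner medulla had the lowest level of both genes, with the other libraries close together. Of 15 glycolytic genes, 9 of them with at least 100 CPM, Eno1 and Pkm were past the size higher (median 0.63). With TMM factors 1 was higher and 1 lower. Pkm, the pyruvate kinase of most tissues outside liver, stood at 335, 99.0, 89.7 and 67.4 CPM, and Ldhb, the lactate dehydrogenase of oxidative tissue, at 863, 1603, 1606 and 1685 CPM. Hypoxia genes gave no common direction. Of 13, Hif1a was past the size higher, at 218, 30.9, 29.9 and 29.3 CPM, and Ndrg1 lower, at 176, 677, 1804 and 688 CPM, with a difference of -1.38 between the whole kidney libraries themselves. Vegfa, the endothelial growth factor, stood at 32.2 CPM against 89.1, 80.4 and 75.1. The V-ATPase subunits (1 of 19 higher, 2 lower, median -0.05) and the sodium, potassium and chloride transport genes (3 of 19 higher, 3 lower, median -0.23) had no common direction. Atp1b1, the sodium pump's main beta subunit, had a log2 ratio of 0.27, below 0 with TMM factors, whereas Atp1b3, another beta subunit, was past the size at 414 CPM against 119. Of 33 ribosomal protein genes, 2 were higher (median 0.39, and -0.16 with TMM factors). Of 11 immediate early genes, Jund, Btg2 and Klf6 were higher, and Fos had 0 UMIs in both medullary libraries.

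**Figure D4:**
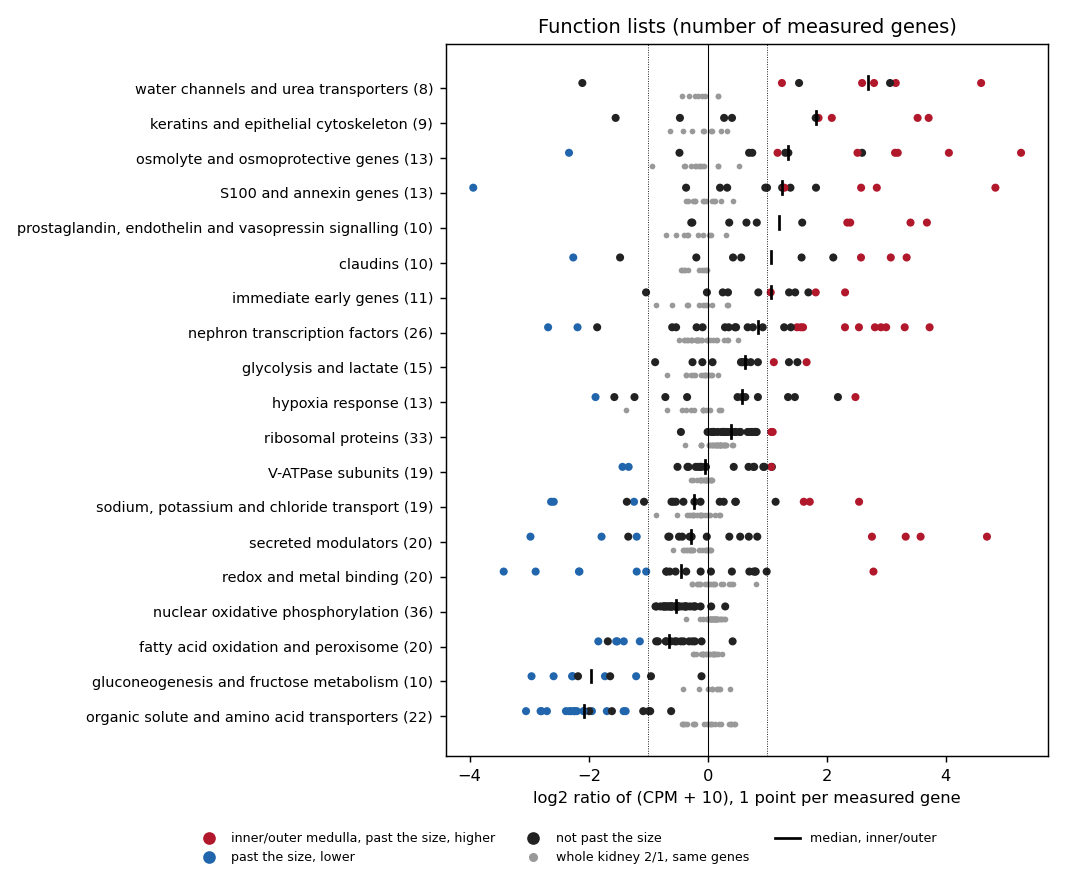
Log2 ratio of (CPM + 10), inner over outer medulla, for each measured gene of the 19 function lists (upper row of each list, coloured where past the size, bar at the median), with whole kidney 2 over whole kidney 1 in grey below. Water channel, keratin and osmoprotective lists lie to the right, transporter and gluconeogenesis lists to the left, and 34 of the 36 oxidative phosphorylation genes sit below 0.

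Most of the 865 differences had the same sign in barcodes rich and poor in genes, with smaller sizes in the gene-poor barcodes. These genes were chosen on sums that include both classes, so the counts are a description. The summed ratio had the same sign as over every barcode for 517 of the 518 higher genes in barcodes with at least 200 genes and for 513 in barcodes with under 100, and for all 347 lower genes in both. The median log2 ratio of the higher genes was 1.70 in gene-rich and 1.31 in gene-poor barcodes, and that of the lower genes -2.09 and -1.59. Aqp2 had 13149 CPM in gene-rich and 4027 in gene-poor barcodes of the inner medulla, while Hbb-b2, Bst1 and Plvap had larger ratios in the gene-poor barcodes.

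**Figure D5:**
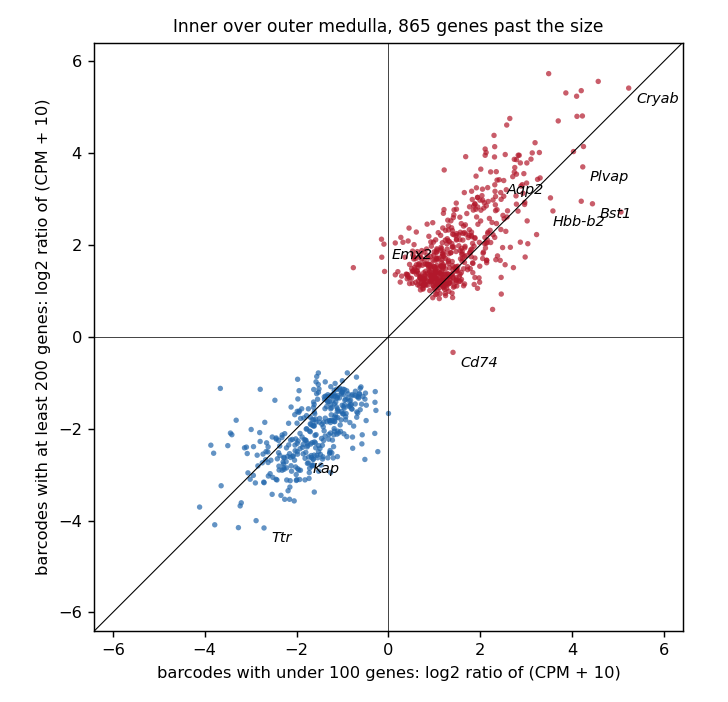
Log2 ratio of (CPM + 10), inner over outer medulla, in barcodes with under 100 genes (x axis) and with at least 200 genes (y axis), 1 point per gene of the 865 past the size over every barcode (518 higher in red, 347 lower in blue), with the line of equality. Most points lie farther from 0 on the y axis (77.8% of the higher and 79.0% of the lower genes, against 63.1% of all 2482 genes with at least 100 CPM). Cd74 is the only higher gene below 0 on that axis, at -0.34.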

How the data were processed

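Drop-seq libraries of microdissected inner and outer medulla (1 each) and of whole kidney (2) were analysed, and the cortex library was not used. The deposited tables hold raw UMI counts (whole numbers) for each gene symbol in each barcode, with at least 50 genes per barcode. Per the labels' protocols, perfused kidneys were digested with a cold-active protease, and the cells were fixed in methanol and frozen. The submitters' processing notes name Seurat 2.3.1 and the build mm9. The aligner and annotation were not given in the sources used here. No mitochondrial genes were listed, and some named genes are not reported here.

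Counts were summed over every barcode of a library and scaled to CPM, and log2 ratios were taken of CPM plus 10. Ratios carry exact conditional 95% intervals, which cover counting error only, and a fold against 0 UMIs was computed with 3 UMIs. Doublets were not looked for, since no barcode was assigned to a cell type and all were summed. With 1 library per side nothing was tested. A gene past the size had at least 100 CPM in the higher library and a log2 ratio of 1 or more in size. Named genes were the 15 largest log2 ratios in each direction (at least 30 UMIs, larger than the gene's own whole kidney ratio), the 10 largest CPM differences in each direction, and members of 36 fixed lists with at least 20 CPM in either library (called measured). The comparison and the lists were chosen with earlier results of these data known. The calculation was tested on simulated data. Alternatives were edgeR 4.0.16 TMM factors, DESeq2 1.42.0 size factors, other pseudocounts and CPM minimums, barcode classes and thinning. Python 3.11.15, numpy 2.4.6, scipy 1.17.1, pandas 2.3.3 and R 4.3.3 were used. Promoter sequences came from RefSeq (GRCm38.p6), another build than that of the files, so no coordinates are given for other genes.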

Additional observations from a re-analysis of the deposited data

How the results depend on the processing

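With edgeR's TMM factors 194 genes were past the size higher in the inner medulla and 612 lower, and with DESeq2's size factors 207 and 578. A pseudocount of 50 CPM left 337 higher. A minimum of 500 CPM gave 66 higher and 91 lower, and no CPM minimum 1544 and 662. Between the whole kidney libraries, 0 were higher and 2 lower at 500 CPM, 3 and 9 with no minimum, and 2 were higher in barcodes with under 100 genes. The other settings (a pseudocount of 1 CPM, barcodes with at least 200 genes, without the 1% of barcodes with the most UMIs, and thinning to the smallest total) kept the counts within 1.5 times. 3 named genes past the size reversed, Cd74 (-0.34 in barcodes with at least 200 genes), Emx2 (-0.10) and Slc12a2 (-0.15), both in barcodes with under 100 genes. The cause was not tested. The other 146 of the 149 named genes past the size kept their sign in every setting, and 127 still had ratios of 1 or more in size (log2). Of 36 list medians 33 kept their sign, the exceptions being thick ascending limb, V-ATPase and ribosomal protein genes. No paired analysis was possible because each region has 1 library. The inner medulla's depth limits genes near 3 UMIs, 3.45 CPM there.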

Other observations

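The genes below describe biology outside the lists. Phactr1, Spp2 and Nox4 were named by the rule of the 15 largest log2 ratios, and the others were chosen after their values were seen. Epcam, an epithelial adhesion protein, stood at 1787 CPM in the inner medulla, 318 in the outer medulla, and 108 and 98.3 in whole kidney. Cd9, a tetraspanin, stood at 1024, 131, 123 and 101 CPM, and Tspan6, another tetraspanin, at 217, 11.4, 2.40 and 2.88 CPM. Mal, a protein of apical membrane traffic, stood at 1890, 339, 244 and 177 CPM. Tpm1 and Tpm4, actin-binding tropomyosins, stood at 497 and 312 CPM against 95 and 58.2 in the outer medulla, and Phactr1, a phosphatase and actin regulator, had the largest log2 ratio of the named genes (5.31), at 796 CPM against 10.3.

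Some genes with few UMIs elsewhere stood out. Epor, the erythropoietin receptor, had 134 UMIs in the inner medulla (154 CPM) against 3.31 CPM in the outer medulla and 2.06 and 0.48 in whole kidney. Nr2e3, a nuclear receptor known from photoreceptors, had 96 UMIs in the inner medulla, 1 in the outer medulla and 0 in both whole kidney libraries. Scx and Tbx3, developmental transcription factors, each had 115 UMIs in the inner medulla and 15 in the outer medulla. Cdkn2b, an inhibitor of the cell cycle, stood at 135 CPM against 2.95, and Hoxb9 at 267 CPM against 24.3. Angpt2, a vascular ligand, stood at 116 CPM in the inner medulla, 9.20 in the outer medulla, and 0.34 and 0.24 in whole kidney.

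On the lower side, Nox4, an NADPH oxidase of the tubule, stood at 32.2 CPM in the inner medulla against 553, 347 and 547. Spp2, a secreted phosphoprotein, had the most negative log2 ratio of the named genes (-4.09), at 64.4 CPM against 1257, 836 and 1059. Kl, the FGF23 coreceptor klotho, stood at 43.7, 286, 445 and 357 CPM, and Pth1r, the parathyroid hormone receptor, at 63.2, 399, 512 and 495 CPM. Guca2b, uroguanylin, stood at 178, 1054, 925 and 1061 CPM. For each of these genes the outer medulla was nearer to whole kidney than to the inner medulla.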
